A study of Danio rerio with 20 samples.

Results

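The normal change of the transcriptome from 28 hr postfertilization (hpf) to 3 days postfertilization (dpf) was measured in WT siblings of a zebrafish *rnaset2* mutant, as whole embryos. Of the 20 one-colour arrays of the series, 7 were chosen by their labels as WT embryo arrays, 3 of 3 dpf and 4 of 28 hpf. All 43603 probes of each array were used. The other arrays are of mutant embryos at the same stages (3 and 4 arrays) and of brains dissected from 1-year-old fish, mutant and WT (3 arrays each). The mutants carry the ENU-generated *rnaset2* AO127 allele, in a gene for a lysosomal ribonuclease. The WT embryos are described as siblings, and the labels name no treatment. Embryos were freed of their chorions and pooled before RNA extraction, so an array shows a mean over a pool. In whole embryos, more cells of a type and more RNA per cell cannot be told apart.

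Over this interval the zebrafish body plan is already laid down, and its organs become functional. Segmentation has just ended at the younger stage. By the older one the embryo has hatched or is about to, the heart drives a full circulation, the retina forms layers of neurons and photoreceptors, and the liver, pancreas and gut grow out and differentiate. Rapidly dividing progenitors meanwhile give way to differentiated cells. These are background facts. No table at hand links these probe IDs to gene symbols. None of these tissues could therefore be followed by name, the labelled tissue could not be checked against its markers, and each result is given by probe. A gene may have several probes, which were counted separately.

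The values were fluorescence intensities that the authors had quantile normalized over the arrays, so that each array has nearly the same distribution (lowest intensity 2.14, median 257.7 or 257.8, highest 589725). Background readings were not analysed here, and a low value may be background alone. Precision rests on 3 or 4 arrays a group. Within 28 hpf, the arrays correlated on the log2 scale with a Pearson's r over all probes of 0.992 to 0.994, within 3 dpf it was 0.994 to 0.995, and between the stages it was 0.960 to 0.965. Stage accounted for 79.0% of the sum of squares among the 7 arrays, and differences between arrays of a stage for 21.0%. The median SD of a probe's log2 intensity was 0.099 at both stages. The 28 hpf samples labelled 1 and 1.1 may be repeats of a single pool, which is not stated. The SD of their log2 differences was 0.389, against 0.392 to 0.457 for the other 28 hpf pairs and 0.352 to 0.388 for the 3 dpf pairs. They were kept as separate samples. Slides and scans of the arrays were not analysed here, and a batch that follows the stage cannot be told apart from it. The methods speak in general of repeats on larvae from separate dates, and the paper's results section calls the arrays of a stage biological repeats. The labels tie no array to a clutch or date. The p-values rest on the scatter within groups over all 20 arrays, mutants and adult brains included, whatever its source.

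Most probes changed between the stages. At an adjusted p under 0.05 (limma, Benjamini-Hochberg over all probes), 26466 of 43603 probes (60.7%) differed. Of all probes, 11681 (26.8%) were higher at 3 dpf and 14785 (33.9%) were lower. Most changes were modest, with a median absolute log2 difference of 0.68 among the probes called. The 3 dpf and 28 hpf arrays did not overlap for 95.4% of the probes called, against 66.3% of all probes and 21.4% of those not called.

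Rises and falls differed in shape. The middle 50% of the probes that rose lay between log2 differences of 0.42 and 1.4, and that of the probes that fell between -0.98 and -0.40. At 2-fold or more, 4576 probes were higher and 3555 lower at 3 dpf. At 4-fold these were 1356 and 562, at 8-fold 401 and 107, at 16-fold 180 and 29, and at 32-fold 64 and 8. Rises thus made up 44.1% of all calls, 56.3% of those of 2-fold or more and 88.9% of those of 32-fold or more. Falls were numerous and small, and large changes were mostly rises.

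**Figure D1:**
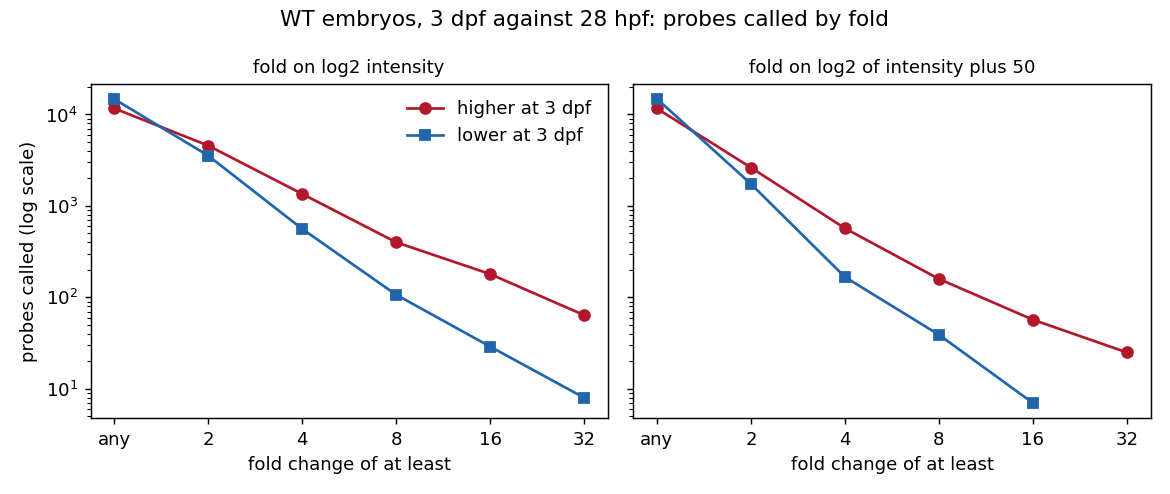
Number of probes called between 3 dpf and 28 hpf in WT embryos (log scale) against the smallest fold change counted, for probes higher (red circles) and lower (blue squares) at 3 dpf, with folds on log2 intensity (left) and on log2 of intensity plus 50 (right). Falls exceeded rises only when changes of any size were counted (14785 against 11681 on the left), which reversed under cyclic loess and with the median difference set to 0, and the 2 lines parted as the fold increased, to 64 rises and 8 falls of 32-fold or more on the left. On the right no fall reached 32-fold and none is drawn there.

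The small excess of falls depended on the scaling, and the excess of large rises held under each scaling tried. Each scaling started from the deposited, quantile normalized intensities. The balance of rises and falls on unnormalized values could therefore not be examined. Over all probes the median log2 difference was -0.085, although the medians of the arrays were equal. With the median difference set to 0, a setting chosen after seeing the data, 13411 probes were higher and 12430 lower, and after cyclic loess normalization, which moved the median difference to 0.026, 13759 were higher and 12076 lower. Large rises still outnumbered large falls, with 446 against 96 at 8-fold or more in the former setting and 463 against 93 in the latter. Fold changes of dim probes also depend on where the scale ends. On log2 of the intensity plus 50, which compresses differences among dim probes, 26452 probes were called. On that scale 159 rises and 39 falls reached 8-fold.

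Changes were found at all levels of brightness, least often among the dimmest probes. The probes were divided by brightness into 10 classes of equal size. In the dimmest, with mean intensities over the 7 WT arrays of 2.15 to 8.38, 22.0% were called, 11.4% higher and 10.6% lower. In the next class 50.3% were called, and the share was highest in the ninth, at intensities of 2441 to 6658, with 72.9%. The median standard error of the log2 difference fell from 0.343 in the dimmest class to 0.070 in the brightest. The median absolute log2 difference was largest in the second, 0.626, and smallest in the brightest, 0.331. From the second class to the ninth, the share called increased while the median absolute difference did not. The pattern did not extend to the ends, with 0.418 in the dimmest class and 69.7% called in the brightest. Absolute differences of dim probes may also include more noise, given their larger standard errors. Falls exceeded rises in each class but the dimmest. The classes were counted on the deposited scale only. Over all probes the excess of falls depended on the scaling, as described above.

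**Figure D2:**
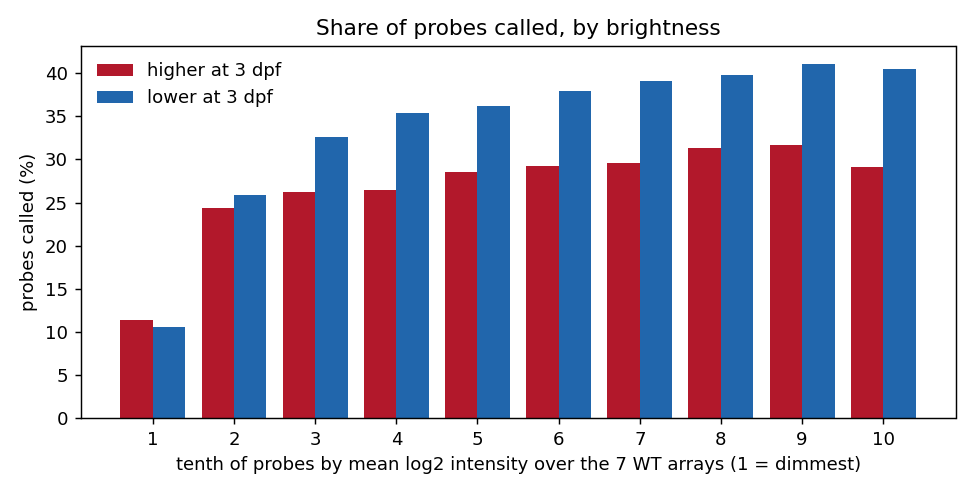
Percent of probes called higher (red) and lower (blue) at 3 dpf in 10 classes of equal size, ordered by mean log2 intensity over the 7 WT embryo arrays from dimmest (1) to brightest (10). The share called lower increased from 10.6% in the dimmest class to 41.1% in the ninth, and the share called higher from 11.4% to 31.7%.

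The single probes with the largest changes show how far a signal could move over this interval. The 4 named here were picked among probes called in WT without overlap between the stages. Their calls and lack of overlap in WT therefore follow from the choice. Probe A_15_P408955 had the largest rise. In the 28 hpf samples 1, 1.1, 2 and 3 its intensity was 2.35, 3.91, 2.42 and 2.28, the bottom of the scale. In the 3 dpf samples 1, 2 and 3 it was 14982, 13061 and 15383, so that the stages did not overlap. The log2 difference was 12.40 (standard error 0.54, limma adjusted p = 8.5e-12), and 8.10 on log2 of the intensity plus 50. In WT adult brain the probe was back at the bottom, at 2.69 ± 0.423 (SD, n = 3). In mutants it followed the same course, with 3.31 ± 1.97 (SD, n = 4) at 28 hpf, 68182 ± 12559 (SD, n = 3) at 3 dpf and 25.2 ± 24.2 (SD, n = 3) in adult brain. Since both 28 hpf groups lie at the bottom of the scale, the fold of either rise is not well determined. The mutant rise minus the WT rise was 2.06 on the log2 scale (standard error 0.76, limma adjusted p = 0.037), and 2.2 on log2 of the intensity plus 50 (limma adjusted p = 2.5e-07). On the former scale the call was lost with a replicate block (limma adjusted p = 0.056) and without any 1 of 9 of the 14 embryo arrays.

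A rise to still higher levels was found for a probe that was already well lit at 28 hpf. Among probes with a mean intensity of at least 500 at both stages, A_15_P104991 rose most. It read 1029.8, 973.8, 1063 and 1263 in the 28 hpf samples 1, 1.1, 2 and 3, and 52028, 47734 and 48184 in the 3 dpf samples. These values do not overlap, and the spread within each stage was small beside the gap between them. The fold change was 45.7, with a log2 difference of 5.52 (standard error 0.43, limma adjusted p = 1.1e-08), and hardly less, 5.45, on log2 of the intensity plus 50. Its level in WT adult brain was 44.7 ± 14.0 (SD, n = 3), below that of the 28 hpf embryos. Mutant embryos had 1004.7 ± 191.7 (SD, n = 4) at 28 hpf and 115294 ± 21755 (SD, n = 3) at 3 dpf. The difference between the mutant and WT rises was 1.33 on the log2 scale and did not pass the test (standard error 0.60, limma adjusted p = 0.087). It passed in 3 of 10 alternative settings and in no fit with a single array left out. The settings were log2 of the intensity plus 50 (1.32, limma adjusted p = 0.012), array weights (limma adjusted p = 0.0032) and the 14 embryo arrays fitted alone (limma adjusted p = 3e-04).

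The largest fall was that of A_15_P663816, which went from a middling level to the bottom of the scale. Its intensity was 785.8, 775.5, 594 and 664.5 in the 28 hpf samples 1, 1.1, 2 and 3, and 3.28, 4.98 and 5.20 in the 3 dpf samples, with no overlap. The log2 difference was -7.32 (standard error 0.47, limma adjusted p = 9.1e-10). On log2 of the intensity plus 50 it was -3.78, since the 3 dpf values lie at the foot of the scale. In WT adult brain the probe remained at the bottom, at 5.90 ± 5.66 (SD, n = 3). Mutants had 297.0 ± 30.5 (SD, n = 4) at 28 hpf and 4.75 ± 3.17 (SD, n = 3) at 3 dpf. The difference between the mutant and WT falls was 1.16 on the log2 scale and did not pass the test (standard error 0.66, limma adjusted p = 0.17). It passed in 3 of 10 alternative settings and in no fit with a single array left out. The settings were log2 of the intensity plus 50 (1.12, limma adjusted p = 1.3e-06), array weights (limma adjusted p = 0.0079) and the 14 embryo arrays fitted alone (limma adjusted p = 0.049).

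Among probes bright at both stages, A_15_P734461 fell most. It was one of the brighter probes of the younger embryos, at 52760, 52163, 56242 and 51420.3 in samples 1, 1.1, 2 and 3, and read 1693, 1869 and 1762 in the 3 dpf samples. The values again do not overlap. The fold change was 30.0, with a log2 difference of -4.90 (standard error 0.16, limma adjusted p = 2.2e-13), and -4.87 on log2 of the intensity plus 50. WT adult brain had 683.6 ± 135.7 (SD, n = 3), below the 3 dpf embryos, whereas mutant adult brain had 3285 ± 898.7 (SD, n = 3), above the 3 dpf embryos of either genotype. In mutants it went from 31089 ± 3737 (SD, n = 4) at 28 hpf to 797.6 ± 33.7 (SD, n = 3) at 3 dpf, a log2 difference of -5.28. The difference from the WT fall was -0.37 on the log2 scale and did not pass the test (standard error 0.22, limma adjusted p = 0.19). It passed in 1 of 10 alternative settings, the 14 embryo arrays fitted alone (limma adjusted p = 0.016), and in no fit with a single array left out.

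**Figure D3:**
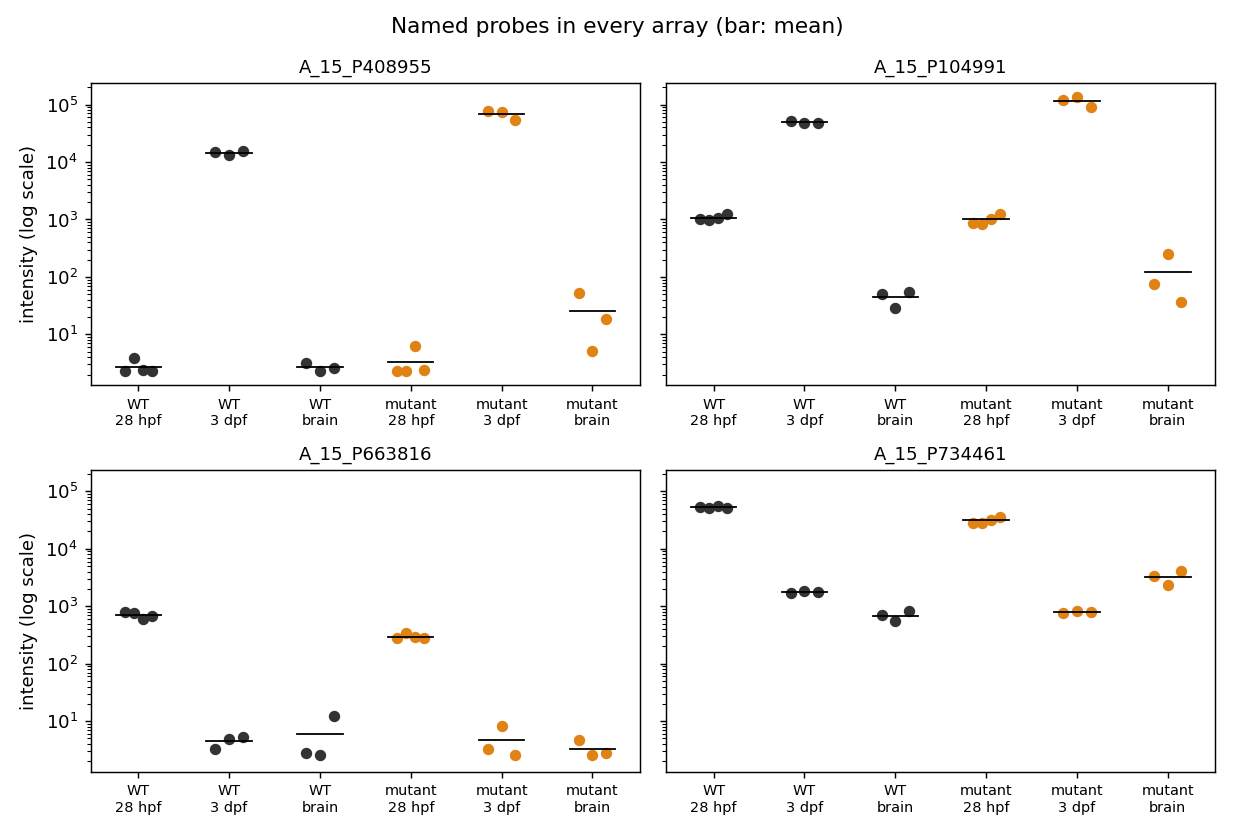
Intensity (log scale) of the 4 named probes in each array, for WT (dark) and mutant (orange) embryos at 28 hpf and 3 dpf and for adult brains, with the mean of each group as a bar. The upper probes rose and the lower probes fell between the stages in both genotypes, with no overlap between 28 hpf and 3 dpf arrays. In WT the lack of overlap follows from how the probes were chosen. Both probes that rose were far dimmer in adult brain than at 3 dpf.

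Large changes mostly began or ended at dim levels. The 401 probes higher by at least 8-fold had a median intensity of 21.3 at 28 hpf and 381.4 at 3 dpf, and 256 of them (63.8%) had a mean under 50 at 28 hpf. The 107 probes lower by at least 8-fold went from a median of 281.6 to 18.4, and 70 of them (65.4%) had a mean under 50 at 3 dpf. Over all probes, 29.7% had a mean under 50 at the dimmer stage. Choosing probes by a large fold itself favours a low value at the dimmer stage, so this contrast partly follows from the choice. A smaller set changed between levels that were clear at both stages, with 57 of the 401 and 16 of the 107 at a mean of 500 or more at the dimmer stage. In 53 probes that rose and 15 that fell by at least 8-fold, the brighter stage had a mean of 10000 or more.

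Few probes went from dim to bright in every array. Only 33 probes were under 50 in each 28 hpf array and at 500 or more in each 3 dpf array. Their stage means ranged from 2.51 to 45.0 at 28 hpf and from 570.4 to 14475 at 3 dpf. The reverse course, from 500 or more in each 28 hpf array to under 50 in each 3 dpf array, was taken by 9 probes, with stage means from 520.1 to 1588 and from 4.49 to 43.3. In the mutant arrays, which played no part in this choice, all 33 were called higher at 3 dpf, against 28.5% of all probes, and all 9 lower, against 42.0%. There, 23 of the 33 and 4 of the 9 also met the same limits of intensity. By those limits alone, 196 probes went from dim to bright in mutants and 10 from bright to dim.

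The brightest probes were largely the same at both stages. Of the 100 brightest probes at 28 hpf, 70 were also among the 100 brightest at 3 dpf, and of the 1000 brightest 853 were shared. The 30 probes in the top 100 only at 3 dpf had a median intensity of 123780 at 28 hpf and 335301 at 3 dpf, and 20 of them were called higher at 3 dpf. The 30 in the top 100 only at 28 hpf had a median of 309225 at 28 hpf and 249860 at 3 dpf, and 20 of them were called lower at 3 dpf. These probes were chosen on the same arrays, so their levels are a description. Most of the strongest signals of the younger embryo were thus among the strongest at 3 dpf.

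The same interval was measured in *rnaset2* mutant embryos on 7 arrays that share none with the WT comparison, though all arrays were normalized together and share a fitted spread for each probe. In mutants 30742 probes (70.5%) were called between the stages, 12418 higher at 3 dpf (28.5%) and 18324 lower (42.0%), with a median log2 difference over all probes of -0.175. Mutant rises and falls were not counted under cyclic loess, where the mutant median difference was 0.035. Their balance, and the shares by direction given below, may therefore depend on the scaling. Over all 43603 probes, the WT and mutant log2 differences had a Pearson's r of 0.729 and a Spearman's rho of 0.691, a description across probes, which are not independent replicates. Of the probes called in WT, 75.6% were called in the same direction in mutants. Among the 21945 probes called in both genotypes, 20003 changed in the same direction (91.2%) and 1942 in opposite directions, of which 1127 rose in WT and fell in mutants. A further 4521 were called in WT only.

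Changes of 2-fold or more in WT mostly recurred in mutants. The share called in the same direction there was 60.1% for rises of under 2-fold, 87.2% for 2-fold to 4-fold, 95.0% for 4-fold to 8-fold, 93.7% for 8-fold to 16-fold and 96.7% for 16-fold or more. For falls it went from 77.7% at under 2-fold to 89.7% at 16-fold or more. Of the 401 probes that rose by at least 8-fold in WT, 381 were called higher in mutants (95.0%, against 28.5% of all probes), and 6 lower. Of the 107 that fell by as much, 91 were called lower in mutants (85.0%, against 42.0% of all probes), and 5 higher. The median intensity of the 401 probes was 20.6, 20.6, 24.1 and 22.6 in the WT 28 hpf samples 1, 1.1, 2 and 3, and 395.7, 388.4 and 414.9 in the WT 3 dpf samples. In mutants it was 24.8 to 25.7 over the 4 arrays of 28 hpf and 791.9 to 888.5 over the 3 of 3 dpf. The mutants were therefore higher at both stages, and by more at 3 dpf. For the 107 probes the median was 255.6 to 300.9 at 28 hpf and 16.7 to 20.2 at 3 dpf in WT, and 197.8 to 218.8 and 24 to 26 in mutants. Since the probes were chosen on the WT values, these levels are a description.

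**Figure D4:**
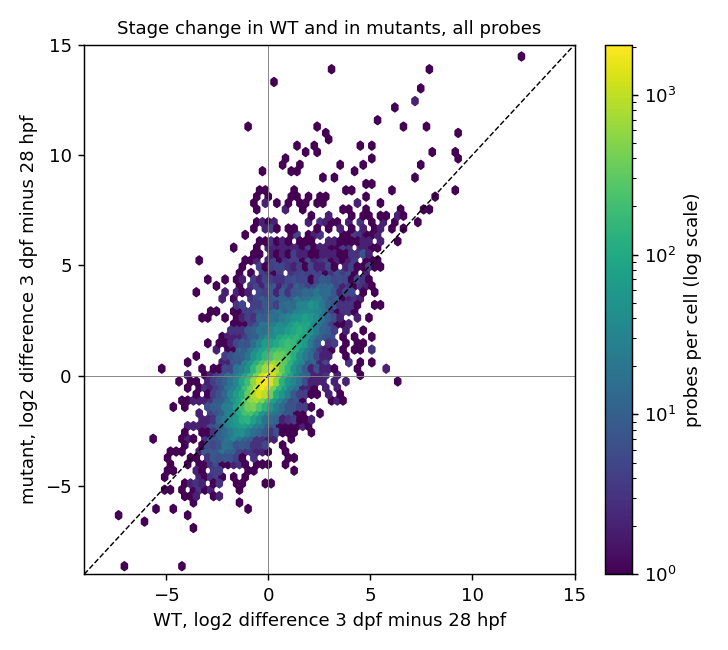
Log2 difference between 3 dpf and 28 hpf in mutants (vertical) against WT (horizontal) for 43603 probes, coloured by the number of probes per cell (log scale), with the line of equal change dashed. Most probes lie in the quadrants of same-direction change (Pearson's r of 0.729 across probes), and many of the large rises lie above the line.

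The size of the stage change was not equal between the mutant and WT arrays. The labels tie no array to a clutch or date, so a batch that differs between these groups cannot be told apart from genotype. Tested directly as the difference of the 2 stage changes, 19475 probes (44.7%) differed between mutants and WT. For 14575 of these the change was larger in mutants, and for 4900 smaller. Size was compared here without regard to direction, so probes that changed in opposite directions in the genotypes are included. With the median difference set to 0 in each genotype the counts were 13720 and 5003, and after cyclic loess 13559 and 4962, so larger changes in mutants prevailed under each scaling. Of the 401 large WT rises 214 differed by this test, 138 of them larger in mutants and 76 smaller. Of the 107 large WT falls 73 differed, 29 larger in mutants and 44 smaller. Over all probes the share that differed was 44.7%. The 401 and 107 probes were chosen on WT values that the test also uses, so their counts are a description.

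Mutant adult brain showed which of the early changes were in the same direction in mature neural tissue. To keep the arrays apart from those of the WT comparison, mutant adult brains were set against mutant 28 hpf embryos. Both comparisons still share a fitted spread for each probe, so a probe called in WT may be called more readily here. There 42.5% of all probes were called higher in brain and 40.0% lower. Tissue and age differ together in this comparison and cannot be told apart. The paper reports that immune genes were mostly raised in these mutant brains, so they need not represent normal brain. Of the WT probes that rose by under 2-fold, 69.5% were higher in adult brain and 21.4% lower. For rises of 2-fold to 4-fold 77.0% were higher. The share was 74.6% for rises of 4-fold to 8-fold, 56.6% for 8-fold to 16-fold and 47.2% for 16-fold or more. With the brain comparison on log2 of the intensity plus 50 the shares higher from 2-fold on were 76.9%, 74.3%, 53.8% and 43.3%. The share lower in brain was 15.3%, 15.7%, 28.1% and 25.6% in the same order. In each class more probes were higher than lower in adult brain. Among rises of 16-fold or more the share higher was close to that of all probes, the share lower was under it, and 27.2% were not called.

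Most falls of each size in WT were lower in mutant adult brain than in mutant 28 hpf embryos. Among falls of under 2-fold the share was 64.4%. Of the probes that fell by 2-fold to 4-fold in WT, 74.6% were lower in adult brain than in 28 hpf embryos, and 78.2%, 83.3% and 72.4% of those that fell by 4-fold to 8-fold, 8-fold to 16-fold and 16-fold or more. The last of these groups holds only 29 probes. Between 7.69% and 14.4% in these 4 groups were higher in brain. Most signals that receded between 28 hpf and 3 dpf in WT were thus also below the mutant 28 hpf level in mutant adult brain.

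**Figure D5:**
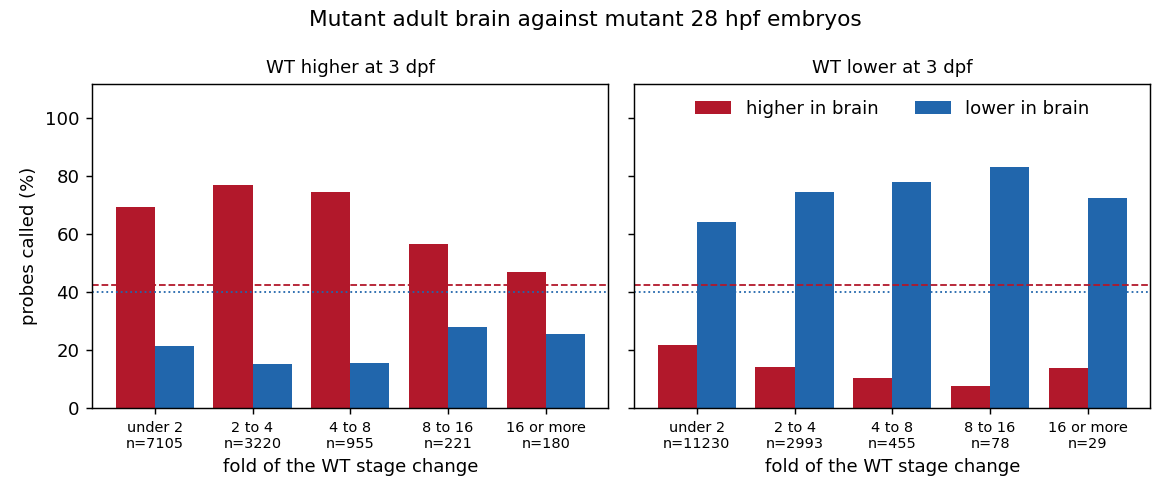
Percent of probes called higher (red) and lower (blue) in mutant adult brain than in mutant 28 hpf embryos, for probes called higher (left) or lower (right) at 3 dpf in WT, by the fold of the WT change, with the number of probes (n) under each class and the shares over all probes as dashed (42.5% higher) and dotted (40.0% lower) lines. On the left the red bars go from 69.5% at under 2-fold to 77.0% at 2-fold to 4-fold and down to 47.2% at 16-fold or more, and on the right the blue bars stay at 72.4% or above from 2-fold on.

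The 401 large rises split into 3 groups by this brain comparison. In the group higher in adult brain (210 probes) the median intensity was 12.1 at 28 hpf, 228.9 at 3 dpf and 608.9 in adult brain of WT fish. In the group lower in adult brain (108 probes) the WT medians were 156.6, 3832 and 43.8, so that the signal was strong in the 3 dpf embryo and low in brain. In the group not called (83 probes) they were 9.61, 273.1 and 19.6. The WT adult means played no part in this split, though those arrays contribute to the fitted spread of each probe. The group lower in brain was the brightest at 3 dpf. Both named probes that rose were also dim in WT brain, at 2.69 and 44.7.

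Brightness moved with this split. Of the large rises that started under an intensity of 50, 60.9% were higher in adult brain and 12.5% lower, whereas of those that started at 50 or more 37.2% were higher and 52.4% lower. For rises of 2-fold to 8-fold the corresponding shares higher in brain were 79.7% and 74.2%. A probe that starts near the bottom of the scale has little room to be lower in brain, which limits the comparison of these shares. The part of brightness in the decline was not tested. Among the 33 probes that went from dim to bright in each WT array, the median intensity in mutants was 26.9 at 28 hpf, 2273 at 3 dpf and 14.7 in adult brain.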

How the data were processed

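The authors hybridised Cy3-labelled cRNA to Agilent zebrafish 4x44K arrays and deposited 1 table of fluorescence intensities, quantile normalized, on a linear scale. No source used here names the scanner software or a background correction. Probe re-annotation against danRer11 and the choice of a single probe for each gene, described in the methods, were not repeated. The labels conflict on the younger stage, with 28 hpf in one field and 28 dpf in another. The paper gives 28 hpf, which was used.

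Deposited intensities were log2-transformed and fitted in limma 3.58.1 (R 4.3.3) as 6 group means over 20 arrays (14 residual and 1.79 prior degrees of freedom). Contrasts were 3 dpf minus 28 hpf in WT and in mutants, their difference, and mutant adult brain minus mutant 28 hpf. Tests were two-sided and adjusted over 43603 probes. No dim probes were removed. The precision is limited by the number of arrays. The fit was also run on artificial arrays with independent scatter and known changes in a small share of probes. These arrays held no normalization step and no batch, so the run does not bear on either. The probes named had the largest rise and fall among those called without overlap, over all probes and over those with a mean of at least 500 at both stages. Members, lists and tests were chosen with earlier results of these data known. Alternatives covered the scaling, the offset before log2, dim probes, the fold and p limits, the arrays fitted, the variance model, averaging of samples 1 and 1.1, and each array left out. Prepared gene lists could not be used. Same-numbered arrays of the 2 stages had correlations of deviations from -0.025 to 0.045, so the replicate number was not used as a block in the main design.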

Additional observations from a re-analysis of the deposited data

Results flagged for a closer look

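For A_15_P408955, 1 array stood apart from the others of its group at 28 hpf in each genotype. WT sample 1.1 had an intensity of 3.91, against 2.28 to 2.42 in the other 3 WT arrays, and mutant sample 2 had 6.26, against 2.28 to 2.4. All lie at the bottom of the scale. Of 8 groups of 4 arrays tested in this way 2 stood out, both for this probe. Chance alone gives about 1 in 20 for normally distributed values. Intensities at the bottom of the scale need not be so distributed, so no conclusion is drawn from this count.

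The stage change differed between mutants and WT for 19475 probes by the test of the difference itself. For A_15_P408955 it differed by 2.06 on the log2 scale, between rises that both start at the bottom of the scale, and leaving out single arrays moved the limma adjusted p between 0.015 and 0.073.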

How the results depend on the processing

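With a change of at least 2-fold required as well, 8131 probes were called in WT (4576 higher and 3555 lower at 3 dpf), 12933 in mutants and 5680 for the difference between them. No other setting moved these counts by over 1.5 times. With any single array left out, 24323 to 25495 probes were called in WT (10836 to 11241 higher and 13471 to 14257 lower), 29201 to 29970 in mutants and 17623 to 18935 for the difference. With samples 1 and 1.1 averaged, 25048 probes were called in WT. With the 7 WT arrays fitted alone 28242 were called, of which 25341 were also called in the fit of all arrays. With a replicate block 25341 were called in WT, 29977 in mutants and 18711 for the difference. The block changed none of these counts by over 1.5 times and no call of a named probe's WT change. For A_15_P408955 the call of the difference between mutants and WT was lost with the block (limma adjusted p = 0.056), with samples 1 and 1.1 averaged (limma adjusted p = 0.093), and without mutant 3 dpf sample 1 or 2, mutant 28 hpf sample 1, 1.1 or 3, any WT 3 dpf sample, or WT 28 hpf sample 1.1 (limma adjusted p = 0.057 to 0.073). With the 14 embryo arrays fitted alone all 4 named probes passed this test, at limma adjusted p = 3e-04 to 0.049.

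The more frequent direction reversed under cyclic loess, where 53.3% of the calls were rises, and with the median difference set to 0, where 51.9% were. Over the settings, the WT changes of the 4 named probes kept their direction and stayed under the threshold, with a highest adjusted p of 4.5e-07 from limma. Counts of 2-fold changes moved on log2 of the intensity plus 50, to 2625 rises and 1739 falls. The dim end of the scale limits the folds of probes near 2.14.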
